A study of Mus musculus with 3 samples.

Results

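The TNF-family costimulatory receptors and ligands form 5 receptor and ligand pairs: 4-1BB and its ligand (Tnfrsf9 and Tnfsf9), OX40 and its ligand (Tnfrsf4 and Tnfsf4), GITR and its ligand (Tnfrsf18 and Tnfsf18), CD40 and its ligand (Cd40 and Cd40lg), and CD27 and its ligand (Cd27 and Cd70). These 10 genes were chosen by symbol out of the 32285 genes of the count matrices, and all 10 were found. They were followed through marker-gated cell classes, with tumour cells and endothelium included, in 3 single-cell RNA-seq libraries of mouse tumour tissue.

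The library labelled CKO+RI came from mice with Sfrp2 deleted in cells that use the Col1a2 driver, given radiation plus an immune checkpoint inhibitor. The library labelled Flox+RI came from mice with floxed, undeleted Sfrp2 given the same combination, and the library labelled Flox+ICI from floxed mice given the checkpoint inhibitor alone. All hosts carried LLC1-sgLkb1 tumours, a Lewis lung carcinoma line with Lkb1 targeted. The cells were seeded into the lung through the tail vein and, 3 weeks later, placed under the skin as the site to irradiate. Tissue was taken after therapy, and the labels give it only as tumour, without saying which lesion it was or how many animals it came from.

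The libraries held 9300 barcodes in CKO+RI, against 13340 in Flox+RI and 10842 in Flox+ICI, of which 8383 CKO+RI cells, 11706 Flox+RI cells and 9777 Flox+ICI cells were kept. The median depth was 13406 UMIs (unique molecular identifiers, one per captured RNA molecule) per kept cell in CKO+RI, against 2576.5 in Flox+RI and 3018 in Flox+ICI, so shares of cells with a UMI are also given at equal depth. Sfrp2, the targeted gene, went against the label: it had 46 UMIs (0.320 CPM, counts scaled to a total of 1e+06) under the label CKO+RI, against 3 (0.0346 CPM) in Flox+RI and 6 (0.0913 CPM) in Flox+ICI. The libraries shared few barcodes: 34 between CKO+RI and Flox+RI, 31 between CKO+RI and Flox+ICI, and 37 between Flox+RI and Flox+ICI. Each group has 1 library, so no difference has a replicate check, and every interval below covers counting error only, at 95%. Clusters that no marker list named are called by their leading genes. Among them, the cluster led by Ccl3 and Itpr2 held 1 cell in CKO+RI, against 2293 in Flox+RI and 31 in Flox+ICI, and the cluster led by Lum and Dcn held 949 CKO+RI cells, 20 Flox+RI cells and 8 Flox+ICI cells.

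Costimulatory receptors of the TNF receptor superfamily are switched on or raised in T cells after antigen recognition, and bind ligands carried mainly by antigen-presenting cells. They recruit TRAF adaptor proteins, which activate NF-kB and raise survival genes such as Bcl2l1. CD40 works in the other direction: it sits on antigen-presenting cells and receives its ligand from helper T cells. 4-1BB is also known from endothelium, where inflammatory cytokines and low oxygen can induce it, and agonist antibodies to 4-1BB, OX40, GITR and CD40 have been tested as cancer therapies.

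Several of these genes lie close together in the mouse genome (mm10, 1-based). Tnfrsf9 lies at chr4:150914562-150946102 on the plus strand. On the same chromosome Tnfrsf4 (chr4:156013843-156016612) and Tnfrsf18 (chr4:156026164-156028895), both on the plus strand, are separated by 9551 bases. Tnfsf4 (chr1:161395409-161418410) and Tnfsf18 (chr1:161494655-161505290) are 76244 bases apart, and Tnfsf9 (chr17:57105325-57107757) and Cd70 (chr17:57145997-57149777) are 38239 bases apart. Cd40 lies at chr2:165055627-165072948, Cd40lg at chrX:57212143-57224042 and Cd27 at chr6:125232622-125237010. Tnfrsf9 overlaps Camta1 on the opposite strand, Tnfsf9 overlaps Gm11110, Tnfrsf18 overlaps Gm16008 and Cd27 overlaps Vamp1. The sources used here do not say how strand entered the counting, so values of these neighbours are set beside some of the results they touch.

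Promoter windows are shown for the 3 receptors that differed most in T cells and endothelium, since all 3 sit on chromosome 4. The RefSeq table (GRCm38.p6) held windows for 5 of the 10 members, namely Tnfsf18, Tnfrsf9 with 2 start sites, Tnfrsf4, Tnfrsf18 and Cd27. The 250 bases before each start were searched on both strands for an NF-kB site (GGGA, any base, then TTTCC), an AP-1 site (TGANTCA) and the hypoxia response core (ACGTG). All windows are on the plus strand, written 5′ to 3′, with bases in annotated exons left out and matches to the hypoxia response core in capitals.
Tnfrsf9, first start, chr4:150919905-150920154: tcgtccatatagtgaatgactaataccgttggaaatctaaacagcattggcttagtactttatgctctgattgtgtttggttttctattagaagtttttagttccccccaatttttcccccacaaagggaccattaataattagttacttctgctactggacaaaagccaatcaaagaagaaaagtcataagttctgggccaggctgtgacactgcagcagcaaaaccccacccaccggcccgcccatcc
Tnfrsf9, second start, chr4:150927749-150927917: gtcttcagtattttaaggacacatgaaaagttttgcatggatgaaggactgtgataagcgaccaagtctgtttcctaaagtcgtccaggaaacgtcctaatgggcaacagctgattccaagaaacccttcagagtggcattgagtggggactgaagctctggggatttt
Tnfrsf4, chr4:156013611-156013694: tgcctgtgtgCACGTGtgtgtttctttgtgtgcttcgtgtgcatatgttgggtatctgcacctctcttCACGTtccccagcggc
Tnfrsf18, chr4:156026072-156026163: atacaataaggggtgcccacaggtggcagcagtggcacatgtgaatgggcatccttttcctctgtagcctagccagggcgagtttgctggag
The Tnfrsf4 window held the hypoxia response core 74, 73 and 16 bases before the start, the first 2 matches overlapping on opposite strands. The second Tnfrsf9 window held an AP-1 match 15 bases before the start, in an exon that is not printed. No other match to these letters was found in the 5 genes' windows. Other forms of the NF-kB site were not searched. The unprinted part of the second Tnfrsf9 window also holds ggggatttcc, which is close to the NF-kB letters but not a match. Of 32851 promoter windows in the table, 117 (0.356%) held the NF-kB letters, 2217 (6.75%) the AP-1 letters and 5444 (16.6%) the hypoxia response core. A match describes the letters only, not a bound site.

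A member was called in a class when the 2 libraries together held at least 20 of its UMIs, the ratio of CPM was at least 2 or at most 0.5, and the exact interval of the ratio left out 1. Of 100 pairs of member and class for the library labelled CKO+RI set against Flox+RI (10 classes with at least 50 cells in both), 31 had enough UMIs and 9 were called, 5 higher and 4 lower. Over all genes in the same classes 12.8% of tested pairs were called, 7.05% higher and 5.78% lower. In Flox+RI against Flox+ICI (11 classes, 110 pairs), 31 had enough UMIs and 12 were called, 6 higher and 6 lower, against 10.5% over all genes (3.71% higher and 6.77% lower). Both comparisons use the Flox+RI library, so a value that is low or high there moves both.
Tnfrsf9, Tnfrsf4 and Tnfrsf18 were all lower in Cd8+ T cells of Flox+RI than in those of either other library, and Tnfrsf9 in endothelium was higher in Flox+RI than in either. The other calls were spread over tumour cells, alveolar type 2 cells, monocytes, macrophages, ungated T or NK cells and the cluster led by Myl7 and Myl9, with Tnfsf4 in Cd8+ T cells and Cd40 in endothelium.

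Tnfrsf9 encodes 4-1BB, a receptor of activated T and NK cells. It had 3026 UMIs in all under the label CKO+RI, against 2397 in Flox+RI and 1128 in Flox+ICI. Among classes of at least 50 cells, the order of its levels differed between libraries. Cd8+ T cells stood first in CKO+RI (332 CPM, 298 to 370) and in Flox+ICI (322 CPM, 281 to 367), with intervals apart from the next class, the Cd4+ Foxp3- T cells (209 CPM in CKO+RI and 171 CPM in Flox+ICI). In Flox+RI the endothelial cell-like class stood first (423 CPM, 376 to 474), apart from ungated T or NK cells (175 CPM) as the next class, whose interval was also apart from that of the Cd8+ T cells (93.3 CPM) below it. Smaller classes are outside this order. Foxp3+ T cells, with under 50 cells in each library, had 241 CPM in CKO+RI (149 to 368, overlapping the Cd8+ interval), 698 CPM in Flox+RI (547 to 878) and 497 CPM in Flox+ICI (327 to 723). Migratory dendritic cell-like cells had 84.4 CPM in CKO+RI (18 cells), 349 CPM in Flox+RI (25 cells) and 218 CPM in Flox+ICI (4 cells). Their Flox+RI interval (213 to 539) overlapped that of the endothelial cell-like class. Below the lymphocytes and endothelium, most neighbouring classes had overlapping intervals. Neutrophil-like cells, taken as a reference class though not known to lack the receptor, held 1 Tnfrsf9 UMI in CKO+RI, 5 UMIs in Flox+RI and 1 UMI in Flox+ICI.

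**Figure D1:**
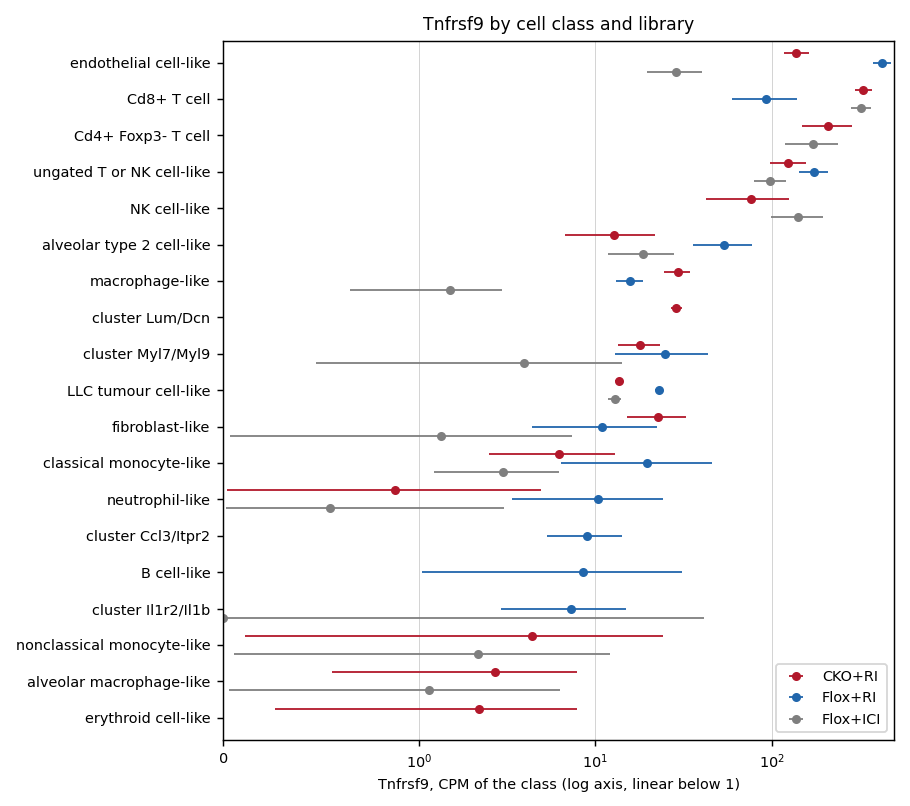
Tnfrsf9 level in CPM (log axis, linear below 1) by cell class, for classes with at least 50 cells in a library. Points are the summed level of the class in 1 library, and bars are 95% counting intervals. The endothelial cell-like class ranges over 138.5 CPM in CKO+RI, 423.1 CPM in Flox+RI and 28.8 CPM in Flox+ICI.

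In endothelium, Tnfrsf9 was higher in Flox+RI than in either other library. Endothelial cell-like cells numbered 359 in CKO+RI, against 120 in Flox+RI and 479 in Flox+ICI, which is 4.28% of kept CKO+RI cells, 1.03% of kept Flox+RI cells and 4.90% of kept Flox+ICI cells. They held 149 Tnfrsf9 UMIs (138.5 CPM, 117 to 163) in the library labelled CKO+RI, 297 (423.1 CPM, 376 to 474) in Flox+RI and 33 (28.8 CPM, 19.8 to 40.4) in Flox+ICI. No intervals overlapped. The level was 3.05-fold lower in CKO+RI than in Flox+RI (2.50 to 3.74), where 15.4% of all genes tested in this class were called, 4.15% of genes as lower. It was 14.7-fold higher in Flox+RI than in Flox+ICI (10.2 to 21.8), where 17.5% were called, 5.16% of genes as higher.

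The share of endothelial cells with a Tnfrsf9 UMI was 6.69% in the library labelled CKO+RI (24 cells), 50.8% in Flox+RI (61 cells) and 3.34% in Flox+ICI (16 cells). Their median depth was 1447 UMIs in CKO+RI, against 4215 in Flox+RI and 1362 in Flox+ICI. With each cell thinned to 1000 UMIs, the shares were 2.87% in CKO+RI (7 of 244 cells), 32.4% in Flox+RI (35 of 108) and 2.14% in Flox+ICI (7 of 327). Neutrophil-like cells gave unthinned shares of 0.165% in CKO+RI (median depth 1844 UMIs), 0.843% in Flox+RI (757) and 0.0649% in Flox+ICI (1084). The endothelial shares thus lay above the share in neutrophil-like cells in each library, and the high share of Flox+RI remained at equal depth.

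The UMIs were unevenly spread over the endothelial cells. The 5 cells with the most held 66.4% of the Tnfrsf9 UMIs in CKO+RI, against 25.6% in Flox+RI and 60.6% in Flox+ICI, and the highest single cell held 35 in CKO+RI, against 24 in Flox+RI and 6 in Flox+ICI. Cells with a Tnfrsf9 UMI were deeper than those without: median 10986.5 against 1386 UMIs in CKO+RI, 6553 against 2021 in Flox+RI, and 4276.5 against 1340 in Flox+ICI. The level in CKO+RI therefore rested on fewer, deeper cells than that in Flox+RI. A mean over cells of single-cell CPM, in which each cell weighs the same, gave a ratio of 0.0989 for CKO+RI over Flox+RI, in place of 0.327 from summed UMIs, and thinned cells gave 0.113.

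Within endothelium, Tnfrsf9 was found in the cluster led by Flt1 and Gpihbp1, at 147.7 CPM in CKO+RI, 426.0 CPM in Flox+RI and 31.4 CPM in Flox+ICI. The smaller cluster led by Prickle2, Aff3 and Car4, the last a marker of one kind of lung capillary cell, held no Tnfrsf9 UMI in 58 CKO+RI cells, 5 Flox+RI cells and 90 Flox+ICI cells. Endothelial cells were also split by a UMI of Apln, Angpt2 or Esm1, genes of sprouting vessels. Cells with such a UMI had 174 CPM in CKO+RI (42 cells), 446 CPM in Flox+RI (67) and 67.1 CPM in Flox+ICI (39). Cells without had 119.6 CPM in CKO+RI (317 cells), 324.5 CPM in Flox+RI (53) and 17.9 CPM in Flox+ICI (440). The order of the libraries was the same on both sides of the split, and cells with such a UMI were also deeper, at a median of 6230.5 against 1381 UMIs in CKO+RI.

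**Figure D2:**
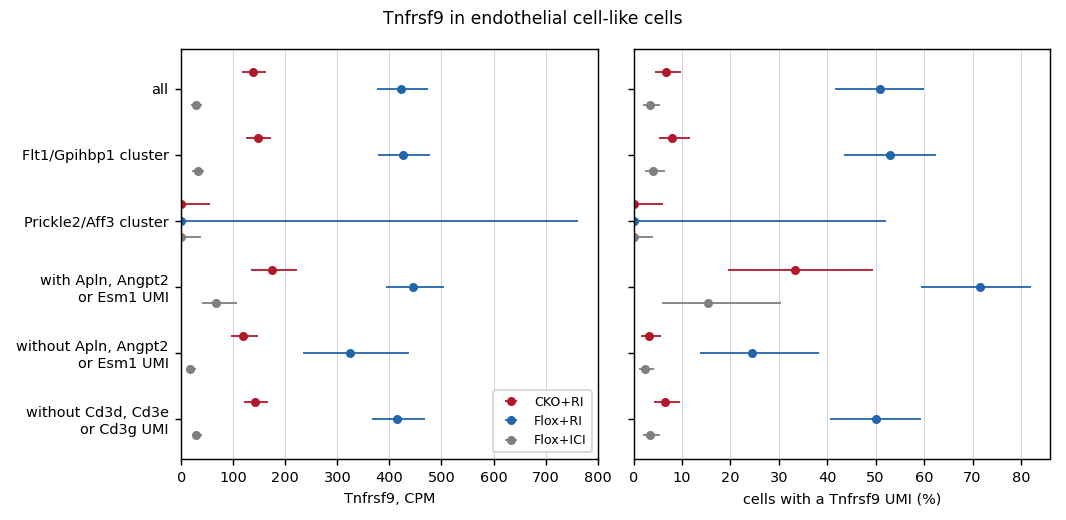
Tnfrsf9 in endothelial cell-like cells, as CPM (left) and as the percentage of cells with a Tnfrsf9 UMI (right), for all cells and for subsets, in each library with 95% counting intervals. Flox+RI lies highest in all subsets but the Prickle2/Aff3 cluster, which holds no Tnfrsf9 UMI in any library.

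T cell RNA was low in these cells. The 7 T cell markers summed to 27.0 CPM in CKO+RI (6 of 7 above 0), 34.2 CPM in Flox+RI (4 of 7; Cd3g, Trac and Trbc1 at 0) and 19.2 CPM in Flox+ICI (7 of 7). Cd8a and Cd8b1 had 4 UMIs in CKO+RI and none in the other 2 libraries, and Foxp3 had none in any. The endothelial class held 12.4 Tnfrsf9 UMIs for each Cd3 UMI in CKO+RI, against 74.3 in Flox+RI and 8.25 in Flox+ICI. In all T and NK cells that ratio was 0.140 for CKO+RI, 0.165 for Flox+RI and 0.155 for Flox+ICI. Without the cells that had a Cd3 UMI, the endothelial levels were 141.9 CPM in CKO+RI, 415.2 CPM in Flox+RI and 29.0 CPM in Flox+ICI. Camta1, which overlaps Tnfrsf9, did not follow it, at 100.4 CPM in CKO+RI, against 98.3 in Flox+RI and 121.2 in Flox+ICI. Erythroid markers summed to 11920 CPM in the endothelial cells of CKO+RI, against 266 in Flox+RI and 457 in Flox+ICI, and their part in the result was not tested.

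LLC tumour cell-like cells held 44.0% of the Tnfrsf9 UMIs of CKO+RI, 67.0% of those of Flox+RI and 55.2% of those of Flox+ICI. The unnamed cluster led by Lum and Dcn had an Xist level of 2.19 CPM, so it was taken as a candidate tumour cluster. Another marker list scored above that of LLC tumour cells in it, so its name is open. This cluster held a further 26.3% in CKO+RI (795 UMIs, 28.9 CPM), against 0.292% for Flox+RI and 0.0887% for Flox+ICI. With that cluster added, the share was highest in CKO+RI. The LLC tumour cell-like class had 13.6 CPM in CKO+RI (1331 UMIs in 3599 cells), 22.9 CPM in Flox+RI (1607 in 4065) and 12.9 CPM in Flox+ICI (623 in 3171). The ratios, 0.593 (0.551 to 0.638) for CKO+RI over Flox+RI and 1.78 (1.62 to 1.96) for Flox+RI over Flox+ICI, were within 2-fold and were not called. The share of cells with a UMI was 24.0% in CKO+RI (median depth 25408 UMIs), 25.6% in Flox+RI (16294) and 15.01% in Flox+ICI (14682). After thinning it was 1.87% of CKO+RI cells, 2.34% of Flox+RI cells and 1.36% of Flox+ICI cells. Tumour cells without a Cd3 UMI had 13.5 CPM in CKO+RI, 23.0 CPM in Flox+RI and 12.7 CPM in Flox+ICI. Camta1 had 46.8 CPM in CKO+RI, 59.5 CPM in Flox+RI and 78.5 CPM in Flox+ICI in the LLC tumour cell-like class. Different clusters made up this class: the one led by Il1rl1 and R3hdml held 88 cells in CKO+RI, against 2618 in Flox+RI and 205 in Flox+ICI, and its Tnfrsf9 level was 19.4 CPM in CKO+RI, 19.8 CPM in Flox+RI and 14.6 CPM in Flox+ICI. In the cluster led by Ereg and Gm12648 it was 20.7 CPM in CKO+RI, 36.1 CPM in Flox+RI and 18.4 CPM in Flox+ICI.

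Tnfrsf9 was also called in alveolar type 2 cell-like and macrophage-like cells. In alveolar type 2 cell-like cells it had 13 UMIs in CKO+RI, against 28 in Flox+RI and 23 in Flox+ICI, which is 12.7 CPM in CKO+RI, 53.7 CPM in Flox+RI and 18.6 CPM in Flox+ICI. These cells held 15 UMIs of Cd3d, Cd3e and Cd3g in CKO+RI, none in Flox+RI and 17 in Flox+ICI. Tnfrsf9 was 4.22-fold lower in CKO+RI than in Flox+RI (2.12 to 8.88) and 2.89-fold higher in Flox+RI than in Flox+ICI (1.61 to 5.26), in a class where 12.9% of genes were called in each comparison. Macrophage-like cells had 29.4 CPM in CKO+RI (141 UMIs), 15.7 CPM in Flox+RI (131) and 1.502 CPM in Flox+ICI (8), and Flox+RI was 10.5-fold higher than Flox+ICI (5.16 to 24.7). With no doublets removed, that ratio was 2.83. The share of macrophage-like cells with a Tnfrsf9 UMI was 8.83% in CKO+RI (median depth 7572.5 UMIs), 4.58% in Flox+RI (4322.5) and 0.697% in Flox+ICI (5111). After thinning it was 1.94% of CKO+RI cells, 1.74% of Flox+RI cells and 0.309% of Flox+ICI cells.

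Tnfsf9 encodes 4-1BB ligand, which activated antigen-presenting cells and many tumour lines carry. LLC tumour cell-like cells held 62.0% of its UMIs in CKO+RI, against 57.1% in Flox+RI and 64.1% in Flox+ICI. The cluster led by Lum and Dcn held a further 19.2% in CKO+RI (299 UMIs, 10.9 CPM), against 0.107% in Flox+RI and none for Flox+ICI, and with it the share was highest in CKO+RI. LLC tumour cell-like cells had 9.88 CPM in CKO+RI (967 UMIs), 7.62 CPM in Flox+RI (534) and 7.88 CPM in Flox+ICI (381). The ratios were 1.30 (1.17 to 1.44) and 0.967 (0.846 to 1.11), so neither was called. Gm11110, which overlaps Tnfsf9, had 8.56 CPM in CKO+RI, 9.06 CPM in Flox+RI and 6.56 CPM in Flox+ICI in the same cells.

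In macrophage-like cells Tnfsf9 had 32.9 CPM in the library labelled CKO+RI (158 UMIs), 38.1 CPM in Flox+RI (318) and 15.6 CPM in Flox+ICI (83). It was 2.45-fold higher in Flox+RI than in Flox+ICI (1.92 to 3.16), where 5.99% of genes were called in this class. Between CKO+RI and Flox+RI the ratio was 0.863 (0.708 to 1.05). The share of cells with a UMI was 17.7% of CKO+RI cells, 13.3% of Flox+RI cells and 7.27% of Flox+ICI cells, and after thinning 2.82% of CKO+RI cells, 3.76% of Flox+RI cells and 1.44% of Flox+ICI cells. Unthinned neutrophil-like cells gave 0.495% of CKO+RI cells, 1.18% of Flox+RI cells and 0.973% of Flox+ICI cells. The cluster led by Ccl8 and Pf4 had 36.3 CPM in CKO+RI (514 cells), 51.1 CPM in Flox+RI (734) and 17.2 CPM in Flox+ICI (437). The cluster led by Ctss and Hmox1 had 15.5 CPM in CKO+RI (86 cells), 31.2 CPM in Flox+RI (1186) and 14.5 CPM in Flox+ICI (567). Flox+RI was thus the highest library in each cluster, although the clusters' shares of the class differed. Gm11110 had 14.0 CPM in CKO+RI, 15.2 CPM in Flox+RI and 8.07 CPM in Flox+ICI in these cells, the same order of libraries as Tnfsf9, and reads of the 2 genes cannot be told apart here.

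Other Tnfsf9 calls rested on few molecules. Classical monocyte-like cells held 12 UMIs in CKO+RI, against 12 in Flox+RI and 55 in Flox+ICI, or 10.7 CPM in CKO+RI, 47.4 CPM in Flox+RI and 23.7 CPM in Flox+ICI, which is 4.42-fold lower in CKO+RI than in Flox+RI (1.81 to 10.7), where 11.6% of genes were called. Thinned monocyte-like cells held no Tnfsf9 UMI in CKO+RI and 4 in Flox+RI. The unnamed cluster led by Myl7 and Myl9 held 45 Tnfsf9 UMIs in CKO+RI and none in Flox+RI, at least 2.39-fold higher against a floor of 3 counts, in a cluster where 13.5% of genes were called.

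In Cd8+ T cells, gated as T cells with a Cd8a or Cd8b1 UMI, the 3 receptors 4-1BB, OX40 and GITR moved together: lower in Flox+RI than in either other library. There were 236 such cells in CKO+RI, against 144 in Flox+RI and 252 in Flox+ICI, at median depths of 3369 UMIs for CKO+RI, 1576 for Flox+RI and 2041 for Flox+ICI. Tnfrsf9 had 338 UMIs, or 332 CPM, in the library labelled CKO+RI, 24 (93.3 CPM) in Flox+RI and 225 (322 CPM) in Flox+ICI. Tnfrsf4, which encodes OX40, had 81 UMIs (79.6 CPM) in CKO+RI, 9 (35.0 CPM) in Flox+RI and 58 (82.9 CPM) in Flox+ICI. Tnfrsf18, which encodes GITR, had 181 UMIs (178 CPM) in CKO+RI, 22 (85.6 CPM) in Flox+RI and 131 (187 CPM) in Flox+ICI. For each of the 3 genes Flox+RI was the lowest library, and CKO+RI and Flox+ICI had overlapping intervals.

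In the library labelled CKO+RI, Tnfrsf9 was 3.56-fold higher than in Flox+RI (2.35 to 5.63), Tnfrsf4 2.27-fold higher (1.14 to 5.15) and Tnfrsf18 2.08-fold higher (1.33 to 3.4). That is 3 of 4 members with enough UMIs in this class, where 11.2% of all genes tested were called. In Flox+RI, Tnfrsf9 was 3.45-fold lower than in Flox+ICI (2.26 to 5.49), Tnfrsf4 2.37-fold lower (1.17 to 5.44) and Tnfrsf18 2.19-fold lower (1.39 to 3.61), and Tnfsf4 was also lower, so 4 of 5 members were called, where 8.75% of genes were.

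The libraries differed less in shares of cells once depth was made equal. The share of Cd8+ T cells with a Tnfrsf9 UMI was 36.9% in CKO+RI, against 13.2% in Flox+RI and 32.5% in Flox+ICI, at unequal depth. At 1000 UMIs per cell it was 16.2% of CKO+RI cells (11.7 to 21.5), 11.5% of Flox+RI cells (6.42 to 18.5) and 17.2% of Flox+ICI cells (12.7 to 22.6), with overlapping intervals. Summed over thinned cells, the Tnfrsf9 ratio was 2.04 for CKO+RI over Flox+RI and 0.463 for Flox+RI over Flox+ICI. The share with a Tnfrsf18 UMI was 40.7% of CKO+RI cells, 13.2% of Flox+RI cells and 25.0% of Flox+ICI cells, and after thinning 15.7% of CKO+RI cells, 6.56% of Flox+RI cells and 15.1% of Flox+ICI cells. Of unthinned neutrophil-like cells, 3.14% of CKO+RI cells, 0.843% of Flox+RI cells and 1.23% of Flox+ICI cells had a Tnfrsf18 UMI. All 9 Tnfrsf4 UMIs of Flox+RI were in 2 cells, which belonged to the sub-cluster led by Foxp3 and Ikzf2, while 40 cells in CKO+RI and 29 in Flox+ICI had a Tnfrsf4 UMI. At 1000 UMIs per cell, the Tnfrsf4 ratio was 1.66 for CKO+RI over Flox+RI (16 and 5 UMIs) and 0.975 for Flox+RI over Flox+ICI (5 and 10 UMIs). With the gate raised to 2 UMIs of Cd8a and Cd8b1, Flox+RI held no Tnfrsf4 UMI. With T cell subsets taken from sub-clusters, the ratio of Flox+RI over Flox+ICI was 0.652 for Tnfrsf18 and 0.547 for Tnfrsf4. The Tnfrsf18 ratio of CKO+RI over Flox+RI was under 2 in 4 alternatives: 1.58 with no doublets removed, 1.95 at Leiden resolution 2.0, 1.67 with sub-clusters and 1.65 as a mean of single cells.

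**Figure D3:**
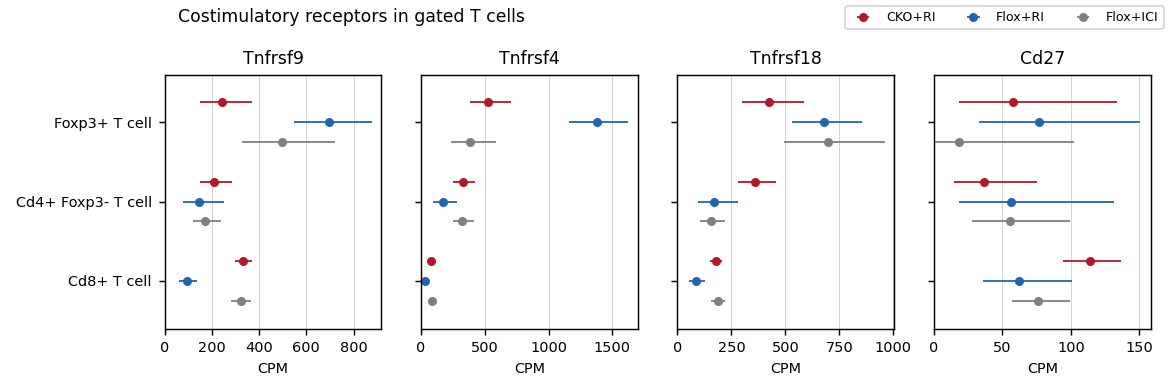
Levels in CPM of the costimulatory receptors in T cell gates, by library, with 95% counting intervals. In the Cd8+ gate Tnfrsf9, Tnfrsf4 and Tnfrsf18 are each lowest in Flox+RI (Tnfrsf9 at 93.3 CPM, Tnfrsf4 at 35.0 CPM and Tnfrsf18 at 85.6 CPM in that library), and in the Foxp3+ gate Tnfrsf4 is highest in Flox+RI (1377 CPM).

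The Cd8+ T cells spread over different sub-clusters in each library. The sub-cluster led by Gzmf and Gzmd, granzymes of strongly activated killer cells, held 71 Cd8+ cells in CKO+RI, against 4 in Flox+RI and 79 in Flox+ICI. Its Tnfrsf9 level was 697 CPM in CKO+RI (290 UMIs), 99.5 CPM in Flox+RI (1 UMI) and 596 CPM in Flox+ICI (185 UMIs). It therefore held most Tnfrsf9 UMIs of the Cd8+ gate in CKO+RI and Flox+ICI, and 1 of 24 in Flox+RI. In the sub-cluster led by Trim69 and Spats2, Tnfrsf9 was at 89.6 CPM in CKO+RI (31 Cd8+ cells), 103 CPM in Flox+RI (84) and 82.3 CPM in Flox+ICI (89), close in all 3 libraries. The sub-cluster led by Krt83 and Ifit1 held 107 Cd8+ cells in CKO+RI, against 6 in Flox+RI and 14 in Flox+ICI, with Tnfrsf9 at 75.0 CPM in CKO+RI, 0 in Flox+RI and 40.9 CPM in Flox+ICI. Hbb-bt, a haemoglobin gene, was among its leading genes, and erythroid markers summed to 812 CPM in the Cd8+ T cells of CKO+RI, against 89.5 in Flox+RI and 107 in Flox+ICI. Without that sub-cluster, the Tnfrsf9 ratio of CKO+RI over Flox+RI in Cd8+ T cells was 4.79.
Tnfrsf4 and Tnfrsf18 were also high in the Gzmf/Gzmd sub-cluster. Tnfrsf4 had 178 CPM in CKO+RI, 0 in Flox+RI and 158 CPM in Flox+ICI there. Tnfrsf18 had 272 CPM in CKO+RI, 99.5 CPM in Flox+RI and 332 CPM in Flox+ICI, the Flox+RI values coming from 4 cells.

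**Figure D4:**
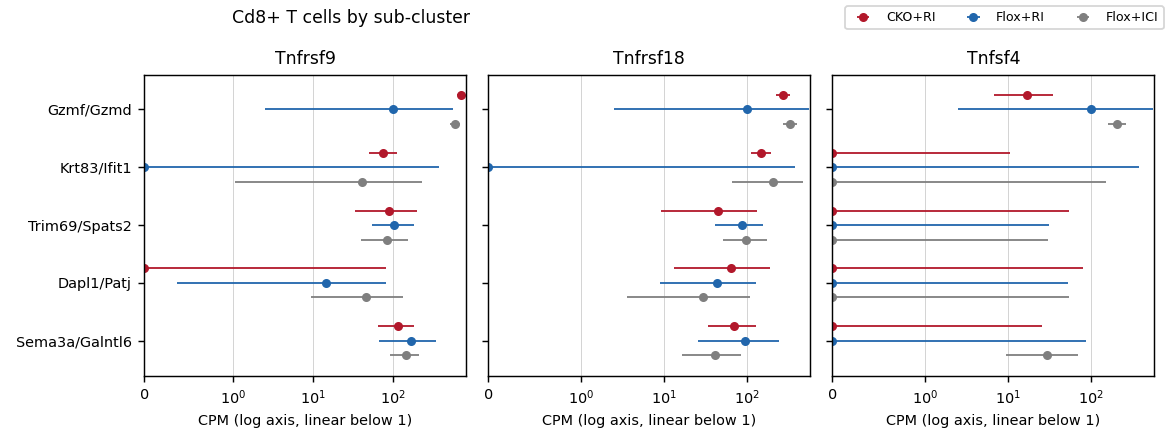
Levels in CPM (log axis, linear below 1) in Cd8+ T cells by sub-cluster of the T and NK cells and by library, with 95% counting intervals. Tnfrsf9 in the Gzmf/Gzmd sub-cluster is 697 CPM in CKO+RI and 596 CPM in Flox+ICI, where Flox+RI has 4 cells, and in the Trim69/Spats2 sub-cluster it lies between 82.3 and 103 CPM.

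Detection of the 3 receptors in the same cell followed the same order. At least 1 of Tnfrsf9, Tnfrsf4 and Tnfrsf18 was seen in 56.4% of Cd8+ T cells of CKO+RI, 21.5% of those of Flox+RI and 43.3% of those of Flox+ICI. All 3 were seen in 12.7% of CKO+RI cells, 1.39% of Flox+RI cells and 5.56% of Flox+ICI cells. These shares were not thinned and carry the difference in depth.

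Regulatory T cells, gated on a Foxp3 UMI, are known to carry OX40 and GITR at rest. Only 14 such cells were found in CKO+RI, against 37 in Flox+RI and 19 in Flox+ICI, too few for a call. Tnfrsf4 had 46 UMIs, or 528 CPM, in the library labelled CKO+RI, 144 (1377 CPM) in Flox+RI and 21 (386 CPM) in Flox+ICI, and was seen in 7 CKO+RI, 30 Flox+RI and 6 Flox+ICI cells. Tnfrsf9 was at 241 CPM in CKO+RI, 698 CPM in Flox+RI and 497 CPM in Flox+ICI, and Tnfrsf18 at 425 CPM in CKO+RI, 679 CPM in Flox+RI and 699 CPM in Flox+ICI. Flox+RI thus had the highest values for Tnfrsf4 and Tnfrsf9 in Foxp3+ cells, the reverse of its place in Cd8+ T cells. For Tnfrsf9 the intervals of Flox+RI (547 to 878) and Flox+ICI (327 to 723) overlapped, so their order is not resolved. In the wider sub-cluster led by Foxp3 and Ikzf2, Tnfrsf4 was at 833 CPM in CKO+RI (27 cells), 1092 CPM in Flox+RI (97) and 669 CPM in Flox+ICI (45). Tnfrsf9 there was at 579 CPM in CKO+RI, 625 CPM in Flox+RI and 493 CPM in Flox+ICI. Among Foxp3+ cells, all 3 receptors were seen in 28.6% of CKO+RI cells, 62.2% of Flox+RI cells and 21.1% of Flox+ICI cells.

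Tnfrsf4 differed in the ungated T or NK cells, which passed no gate. They include cells of the T cell cluster without a Cd3 UMI, whatever their subset markers. Cells with Cd8a or Cd8b1 UMIs together with Cd4 or Foxp3 UMIs are also among them. Tnfrsf4 had 161 CPM in CKO+RI, 238 CPM in Flox+RI (154 UMIs) and 81.5 CPM in Flox+ICI (76 UMIs) there. It was 2.92-fold higher in Flox+RI than in Flox+ICI (2.20 to 3.90), where 4.49% of genes were called in this class. With subsets taken from sub-clusters, which assign most of these cells, the remaining cells held 6 UMIs in Flox+RI and 12 in Flox+ICI and the ratio was 0.916, the others being placed in sub-clusters of their own. Over all T and NK cells, Tnfrsf4 had 135 CPM in CKO+RI, 264 CPM in Flox+RI and 102 CPM in Flox+ICI. Tnfrsf18 in ungated cells was at 190 CPM in CKO+RI, 185 CPM in Flox+RI and 150 CPM in Flox+ICI, and was not called.
In Cd4+ Foxp3- T cells, Tnfrsf4 was at 329 CPM in CKO+RI (56 cells), 169 CPM in Flox+RI (40) and 323 CPM in Flox+ICI (95), with 25 of its 63 UMIs in CKO+RI in 1 cell. Tnfrsf18 there was at 361 CPM in CKO+RI, 169 CPM in Flox+RI and 156 CPM in Flox+ICI. In NK cell-like cells, Tnfrsf9 was at 76.4 CPM in CKO+RI (84 cells), 80.6 CPM in Flox+RI (37) and 142 CPM in Flox+ICI (216).

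Outside lymphocytes, Tnfrsf18 was highest in the few migratory dendritic cell-like cells, with 113 CPM in CKO+RI (12 UMIs in 18 cells), 209 CPM in Flox+RI (12 in 25) and 218 CPM in Flox+ICI (2 in 4). Neutrophil-like cells had 17.6 CPM in CKO+RI (20 UMIs), 10.4 CPM in Flox+RI (5) and 10.9 CPM in Flox+ICI (20). LLC tumour cell-like cells held 31 UMIs (0.317 CPM) in CKO+RI, 36 (0.514 CPM) in Flox+RI and 11 (0.228 CPM) in Flox+ICI, a 2.26-fold higher level in Flox+RI than in Flox+ICI (1.12 to 4.92), where 11.1% of genes were called. Its antisense neighbour Gm16008 had 1.25 CPM in CKO+RI, 1.30 CPM in Flox+RI and 0.786 CPM in Flox+ICI in the same cells, so reads of the pair cannot be told apart. Tnfsf18, the GITR ligand, held 2 UMIs in CKO+RI, none in Flox+RI and 3 in Flox+ICI, too few to describe.

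Tnfsf4 encodes OX40 ligand, which antigen-presenting cells and some activated T cells carry. It had 22 UMIs over the kept cells of CKO+RI, against 19 in Flox+RI and 107 in Flox+ICI. Cd8+ T cells held 7 of them (6.88 CPM) in CKO+RI, 1 (3.89 CPM) in Flox+RI and 70 (100 CPM) in Flox+ICI. The level was 25.7-fold lower in Flox+RI than in Flox+ICI, with a counting interval of 4.47 to 1031. The 70 UMIs of Flox+ICI were in 33 cells, of which the 5 highest held 40.0%, and 65 of them were in the Gzmf/Gzmd sub-cluster, where 30 of 79 cells had a UMI. In the same sub-cluster, CKO+RI held 7 Tnfsf4 UMIs (16.8 CPM) in 71 cells, although its Tnfrsf9 level was near that of Flox+ICI. In Cd4+ Foxp3- T cells Tnfsf4 was at 5.23 CPM in CKO+RI, 11.3 CPM in Flox+RI and 60.5 CPM in Flox+ICI, the last from 12 UMIs in 6 cells. The few migratory dendritic cell-like cells held 4 Tnfsf4 UMIs in CKO+RI (37.5 CPM, 18 cells) and 5 in Flox+RI (87.2 CPM, 25 cells). These levels were above those of the Cd8+ T cells in the same 2 libraries. The 4 such cells of Flox+ICI held none.

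Cd40 is the receptor through which helper T cells license antigen-presenting cells. Macrophage-like cells had 41.7 CPM in the library labelled CKO+RI (200 UMIs), 31.4 CPM in Flox+RI (262) and 39.1 CPM in Flox+ICI (208), with ratios of 1.33 (1.10 to 1.60) and 0.805 (0.668 to 0.970), neither called. LLC tumour cell-like cells had 4.89 CPM in CKO+RI, 7.69 CPM in Flox+RI and 6.31 CPM in Flox+ICI. The tumour cluster led by Ereg and Gm12648 had 6.55 CPM in CKO+RI, 13.2 CPM in Flox+RI and 9.77 CPM in Flox+ICI. Endothelial cell-like cells had 15 UMIs (13.9 CPM) in CKO+RI, 7 (9.97 CPM) in Flox+RI and 28 (24.4 CPM) in Flox+ICI. The level was 2.45-fold lower in Flox+RI than in Flox+ICI (1.04 to 6.64), in a class where 17.5% of genes were called. Thinned cells held no Cd40 UMI in Flox+RI and 10 in Flox+ICI. Cd40 and Tnfrsf9 thus differed in opposite directions in the endothelium of Flox+RI against Flox+ICI.
B cells and dendritic cells, the textbook carriers of CD40, were few. B cell-like cells held no Cd40 UMI in 14 cells of CKO+RI, 8 in 103 cells of Flox+RI (34.2 CPM) and 9 in 37 cells of Flox+ICI (100 CPM). The migratory dendritic cell-like class had 300 CPM in CKO+RI (18 cells), 244 CPM in Flox+RI (25) and 218 CPM in Flox+ICI (4).

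Cd40lg, the CD40 ligand of activated helper T cells, had 54 UMIs in CKO+RI, against 13 in Flox+RI and 43 in Flox+ICI. Ungated T or NK cells held 35 of them (58.8 CPM) in CKO+RI, 9 (13.9 CPM) in Flox+RI and 30 (32.2 CPM) in Flox+ICI. In these ungated cells Cd40lg was 4.23-fold higher in CKO+RI than in Flox+RI (1.99 to 9.998), where 8.16% of genes were called, and 2.31-fold lower in Flox+RI than in Flox+ICI (1.07 to 5.54). Cd4+ Foxp3- T cells held 16 UMIs (83.6 CPM) in CKO+RI, 2 (22.6 CPM) in Flox+RI and 8 (40.3 CPM) in Flox+ICI. Both of these classes put Flox+RI lowest. In Cd4+ Foxp3- T cells, however, its interval (2.74 to 81.6 CPM) overlapped those of CKO+RI and Flox+ICI, so the order there is not resolved. LLC tumour cell-like cells held 1 Cd40lg UMI in the 3 libraries together.

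Cd27, a receptor of naive and memory T cells, was less uneven in T cells than the 3 receptors above. Cd8+ T cells had 114 CPM in CKO+RI (116 UMIs), 62.2 CPM in Flox+RI (16) and 75.8 CPM in Flox+ICI (53), with ratios of 1.83 (1.08 to 3.31) and 0.821 (0.438 to 1.46) that were not called. Over all T and NK cells it had 84.7 CPM in CKO+RI, 55.0 CPM in Flox+RI and 63.4 CPM in Flox+ICI.
In macrophage-like cells Cd27 held 6 UMIs in CKO+RI (1.25 CPM), 108 in Flox+RI (12.96 CPM) and 38 in Flox+ICI (7.13 CPM), which is 10.4-fold lower in CKO+RI than in Flox+RI (4.61 to 28.9), where 14.8% of genes were called. The UMIs lay in 5 CKO+RI, 101 Flox+RI and 34 Flox+ICI cells. Vamp1, which overlaps Cd27 on the other strand, followed the same order with 8.54 CPM in CKO+RI, 33.8 CPM in Flox+RI and 18.4 CPM in Flox+ICI in these cells, so the difference cannot be given to Cd27 alone. T cell markers in macrophage-like cells summed to 8.75 CPM in CKO+RI, 10.6 CPM in Flox+RI and 13.5 CPM in Flox+ICI, and their part in the Cd27 values was not tested. In the cluster led by Ctss and Hmox1 alone the ratio of CKO+RI over Flox+RI was 0.229, from 2 UMIs in CKO+RI and 61 in Flox+RI.

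Cd70, the CD27 ligand, held 28 UMIs in CKO+RI, against 5 in Flox+RI and 4 in Flox+ICI. In CKO+RI, 16 of the 28 were in 3 of 18 migratory dendritic cell-like cells, 14 of them in 1 cell. The Cd8+ T cells held 4 in CKO+RI, none in Flox+RI and 3 in Flox+ICI. No difference can be read from counts of this size.

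Genes with the most similar profiles were taken by Pearson correlation of log2(CPM + 1) over 44 profiles of class by library, as a description, since profiles share libraries and depth. Tnfrsf9 was most like Vgll4 (r = 0.83), Tnk2 (0.82) and Rundc3b (0.81). Tnfrsf4 was most like Slamf1 (0.93), Tff1 (0.92) and Ubash3a (0.90), and Tnfrsf18 was most like Sh2d1a (0.91), Zfp831 (0.90) and Fasl (0.89). Cd27 was closest to Cd247 (0.84), the T cell receptor zeta chain, Tnfsf9 to Vill (0.64) and Cd40 to Itsn1 (0.78). Between members, Tnfrsf4 and Tnfrsf18 had r = 0.78, while Tnfrsf9 and its ligand Tnfsf9 had r = -0.25.

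The 19 genes of signalling below these receptors (TRAF adaptors, NF-kB subunits and survival genes) were described by counts beside those over all genes. In Cd8+ T cells all 19 had enough UMIs for the library labelled CKO+RI set against Flox+RI. The survival gene Bcl2a1b was higher (419 CPM in CKO+RI against 93.3 CPM in Flox+RI), and Birc3 (51.1 CPM in CKO+RI against 140 CPM in Flox+RI), Icam1 (102 CPM in CKO+RI against 214 CPM in Flox+RI) and Bcl2 (233 CPM in CKO+RI against 638 CPM in Flox+RI) were lower. The list's median log2 ratio was -0.24, against 0.04 over all genes tested. The 4 of 19 called stand beside 11.2% of all genes. In Flox+RI against Flox+ICI, 1 of 18 was called, beside 8.75% of all genes, again Bcl2a1b, at 93.3 CPM in Flox+RI against 254 CPM in Flox+ICI, with a median of 0.00 against -0.14 over all genes. Of the 25 other TNF-family genes, 1 of 9 with enough UMIs in Cd8+ T cells was called in each comparison, near the shares of 11.2% and 8.75% over all genes: Tnfsf10 (TRAIL) was higher in CKO+RI (47.2 CPM) than in Flox+RI (11.7 CPM), and Tnfsf11 (RANKL) was lower in Flox+RI (7.78 CPM) than in Flox+ICI (70.1 CPM). Of the 5 B7 and CD28 genes, Cd80, a ligand of CD28, had 32 UMIs in the Cd8+ T cells of CKO+RI, none in Flox+RI and 29 in Flox+ICI.

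In endothelium, the signalling list had 1 of 18 genes called in CKO+RI against Flox+RI, below the 15.4% of all genes: Tnfaip3, at 14.9 CPM in CKO+RI against 48.4 CPM in Flox+RI, with a median log2 ratio of -0.06 against 0.12 over all genes. In Flox+RI against Flox+ICI 3 of 17 were called, all lower, which is near the 17.5% called over all genes (12.3% as lower): Nfkbia (699 CPM in Flox+RI against 1535 CPM in Flox+ICI), Bcl2l1 (95.4 CPM in Flox+RI against 437 CPM in Flox+ICI) and Icam1 (161 CPM in Flox+RI against 436 CPM in Flox+ICI), with a median of -0.23 against -0.11. Among other TNF-family genes, the death receptor Fas had 146 CPM in CKO+RI, 59.8 CPM in Flox+RI and 342 CPM in Flox+ICI.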

How the data were processed

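The data are UMI counts per gene and barcode from droplet single-cell RNA-seq. The counts were deposited by the authors as 3 filtered matrices, made with Cell Ranger 6.1.2 per the file headers. The submitters' processing notes name Cell Ranger 6.0, Seurat 5.0.3 and mm10. The gene annotation that was counted against is not stated there. The members and the lists were chosen with earlier results of these data known.

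From the counts, barcodes were kept if they had 200 or more genes and no more than 20% mitochondrial UMIs. Scrublet in scanpy 1.11.5 then marked doublets (expected rate 0.8% per 1000 barcodes), and 653 were removed in CKO+RI, against 1367 in Flox+RI and 915 in Flox+ICI. The cells were clustered together (2000 variable genes, 30 components, 15 neighbours, Leiden resolution 1), with no batch correction. A cluster was called "X-like" where its marker list scored at least 1, with 3 markers seen in 10% of its cells. It stayed unnamed if another list had more markers among its 10 leading genes. A shallow cluster also stayed unnamed if none of its own markers was among them. Clusters under 20 CPM of Xist were taken as candidate LLC tumour, erythroid or platelet cells, with score limits of their own. T cell subsets were gated by a UMI of Cd3d, Cd3e or Cd3g plus a UMI of Cd8a or Cd8b1, Cd4 or Foxp3. Cells of the T and NK clusters that passed no gate are the ungated T or NK cells.

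UMIs were summed per class and library and given as CPM with exact Poisson intervals. Shares have Clopper-Pearson intervals and ratios exact conditional binomial ones (scipy 1.17.1), all for counting error only. The call rule was tested on simulated counts. No test between groups exists with 1 library per group. The genes named are the 10 members, for each member with at least 200 UMIs the 3 genes most like it, and the genes of the lists past the call rule. The alternatives changed the doublet, mitochondrial and depth filters, the resolution, the T cell gates, the weight of cells, thinning to 1000 UMIs and the call rule. Thinned shares leave out cells with fewer than 1000 UMIs. Promoter sequences are RefSeq's for GRCm38.p6, and gene positions are from GENCODE for the same genome.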

Additional observations from a re-analysis of the deposited data

How the results depend on the processing

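No paired analysis was possible because each group has 1 library, and for the same reason no replicate could be left out. Of 180 alternative values for the ratios of 21 called members, 167 kept their direction and moved by less than their counting interval, 12 moved further and 1 reversed. The number of members called in CKO+RI against Flox+RI was 9, and became 4 with cells thinned to 1000 UMIs, 18 with no minimum fold and 5 with at least 50 UMIs for a call. In Flox+RI against Flox+ICI it was 12, and became 6 thinned and 19 with no minimum fold. Fewer pairs had enough UMIs after thinning (16 and 17 in place of 31 in each). With no doublets removed, the split in the first comparison was 3 higher and 9 lower in place of 5 higher and 4 lower.

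Thinning gave Tnfrsf9 ratios in Cd8+ T cells of 2.04 in place of 3.56 and 0.463 in place of 0.290. The endothelial Tnfrsf9 ratio of CKO+RI over Flox+RI was 0.327, and 0.218 with no doublets removed, 0.113 thinned and 0.0989 as a mean of single-cell CPM. That of Flox+RI over Flox+ICI kept its value within its interval under every alternative run. The Tnfrsf4 ratio in ungated T or NK cells, 2.92, reversed to 0.916 with subsets from sub-clusters, and was 1.78 with no doublets removed. Thinned, Tnfsf9 in the cluster led by Myl7 and Myl9 held 4 UMIs in CKO+RI and 0 in Flox+RI, too few for a ratio. The causes were not tested. The alternatives that left out or isolated single clusters were chosen after seeing the data. Depth limits Tnfsf18, Cd70, Cd40lg and Tnfsf4, and every class under 50 cells.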

Other observations

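Neutrophil-like cells, which held few UMIs of the receptors, had many genes of the signalling list called. The class left out the unnamed clusters led by Il1r2 and Il1b and by Ccl3 and Itpr2, both scoring best as neutrophils (4.90 and 1.56). Of Flox+RI cells, they held 1265 and 2293, where the neutrophil-like class held 593. Of CKO+RI cells, they held 30 and 1, where the class held 606. The values here thus cover only part of the Flox+RI cells in clusters that scored best as neutrophils. The left-out clusters had too few CKO+RI cells to be compared. For the library labelled CKO+RI set against Flox+RI, 8 of its 17 genes with enough UMIs were lower and none was higher, where 9.09% of all genes tested in the class were called in either direction, 4.84% as lower. Icam1, an adhesion molecule and NF-kB target, had 86.2 CPM in CKO+RI, against 477 CPM in Flox+RI. Tnfaip3, an inhibitor of NF-kB signalling that NF-kB itself raises, had 66.0 CPM in CKO+RI against 317 CPM in Flox+RI, and Birc3, an inhibitor of apoptosis, 152 CPM in CKO+RI against 518 CPM in Flox+RI. The inhibitor of NF-kB Nfkbia had 1182 CPM in CKO+RI against 2631 CPM in Flox+RI, and Traf1 had 17.6 CPM in CKO+RI against 47.7 CPM in Flox+RI. The list's median log2 ratio was -0.97, against -0.06 over all genes. Classical monocyte-like cells had 5 of 18 genes lower and none higher, namely Traf1, Nfkbia, Tnfaip3, Bcl2a1b and Icam1, where 11.6% of all genes were called, 6.16% as lower, with a median of -0.68 against 0.07. In Flox+RI against Flox+ICI, 1 of 18 genes was called in neutrophil-like cells, where 8.25% of all genes were: Map3k14 was higher, with a median of 0.23 against 0.17. The median depth of neutrophil-like cells was 1844 UMIs in CKO+RI, against 757 in Flox+RI and 1084 in Flox+ICI, and the part of depth in these values was not tested.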
